A study of Mus musculus with 2 samples.

Results

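Cytochrome P450 genes were taken as the protein-coding genes whose symbol reads Cyp, digits, a letter and digits in the mouse annotation GENCODE M21 (genome build GRCm38). There were 93 of them among 21755 protein-coding genes on chromosomes 1 to 19 and X. They lay on 14 chromosomes, 71 of them in 10 runs of neighbours less than 500 kb apart and 22 as solitary genes. They were set against chromatin boundaries of mature olfactory sensory neurons sorted for expression of Olfr1507 (MOR28), a gene of an odorant receptor. Boundaries are positions across which few contacts pass in Hi-C, an assay that joins and sequences DNA ends lying close together in fixed nuclei. The neurons were primary cells, sorted by fluorescence from the olfactory epithelium of MOR28-GFP mice. The mice were adults of both sexes and of the strain 129P2/OlaHsd, and the labels record no treatment. The single group held 2 biological replicates, with 170000 and 220000 cells, fixed in 1% formaldehyde and cut with DpnII. Both replicates went into 1 boundary list, so no value below has a replicate error, no test between samples was possible and the depth is unknown. The list holds no expression values, so the cell type could not be checked against its markers.

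Cytochromes P450 are heme enzymes that insert an atom of oxygen into small molecules. Families 1 to 3 mainly oxidise drugs, odorants and other foreign compounds, family 4 oxidises fatty acids, and most other families make or remove sterols, bile acids, steroid hormones, vitamin D or retinoic acid. In the nose, Cyp2a5, Cyp2g1 and Cyp2f2 are known as products of the sustentacular (support) cells and the glands of the mucosa, where they oxidise inhaled molecules. The boundaries below are those of the neurons beside those cells, and nothing here was measured in support cells.

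The run that holds Cyp2a, Cyp2g and Cyp2f genes had its strongest boundary at the start of Cyp2f2. The run spanned chr7:25802475-27158668 (1356 kb) and held 13 P450 genes, from Cyp2s1 to Cyp2t4, and 3 P450 pseudogenes. A boundary at chr7:27115001-27120000, with a deposited strength of 2.25, overlapped exon sequence of Cyp2f2, and its midpoint lay 2.41 kb from the transcription start site (TSS). It ranked 120 of the 7367 boundaries in the list by strength and was stronger than 98.4% of them. The strength is the authors' own score, and its scale is unknown here. It ran from 0.20 to 4.26 over the list, with a median of 0.563, and boundaries from 0.5 upwards were classed as strong and lower ones as weak. Cyp2f2, which oxidises naphthalene and related compounds in mouse airways, was the only P450 gene of the 13 in the run whose TSS was at a boundary, that is, within 10 kb of a boundary interval. Over all protein-coding genes that share was 13.0%.

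The promoter of Cyp2f2 is printed because its TSS lay inside the boundary interval itself, on the forward strand of chromosome 7 close to the interval's right end. The promoters of Cyp2a4 and Cyp2a5 are printed because these near-identical genes lay in different intervals of the run. That of Cyp2a12 is printed because it is the nearest P450 gene to the left of the Cyp2f2 boundary. Sequences are RefSeq promoters of GRCm38, from 250 bases before to 50 bases after the RefSeq start, 5′ to 3′ on the gene's strand. Capitals mark TATAAA, the core letters of a TATA box.
Cyp2f2, chr7:27119705-27120004, forward strand: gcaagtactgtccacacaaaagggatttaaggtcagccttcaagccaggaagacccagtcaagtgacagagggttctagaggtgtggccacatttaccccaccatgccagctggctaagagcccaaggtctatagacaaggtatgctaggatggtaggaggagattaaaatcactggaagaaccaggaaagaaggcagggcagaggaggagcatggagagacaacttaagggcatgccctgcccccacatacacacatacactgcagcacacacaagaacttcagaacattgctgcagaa
Cyp2a12, chr7:27028840-27029139, forward strand: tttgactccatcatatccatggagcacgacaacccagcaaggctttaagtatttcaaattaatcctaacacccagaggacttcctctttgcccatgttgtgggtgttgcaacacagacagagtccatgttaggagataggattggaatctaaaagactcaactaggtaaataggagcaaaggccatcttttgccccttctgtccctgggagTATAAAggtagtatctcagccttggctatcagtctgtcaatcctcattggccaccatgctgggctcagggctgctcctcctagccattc
Cyp2a5, chr7:26835089-26835388, forward strand: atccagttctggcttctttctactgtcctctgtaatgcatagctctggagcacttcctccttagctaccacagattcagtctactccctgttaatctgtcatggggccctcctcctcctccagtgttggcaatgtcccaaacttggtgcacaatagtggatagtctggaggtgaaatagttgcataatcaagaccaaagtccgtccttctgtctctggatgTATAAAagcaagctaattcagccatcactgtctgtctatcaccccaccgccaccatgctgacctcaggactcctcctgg
Cyp2a4, chr7:26306942-26307241, forward strand: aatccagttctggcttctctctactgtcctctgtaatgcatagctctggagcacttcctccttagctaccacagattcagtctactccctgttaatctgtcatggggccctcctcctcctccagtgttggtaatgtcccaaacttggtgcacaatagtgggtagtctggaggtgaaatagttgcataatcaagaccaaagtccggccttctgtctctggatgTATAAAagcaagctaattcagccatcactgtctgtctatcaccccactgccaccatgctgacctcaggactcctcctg
Cyp2a4, Cyp2a5 and Cyp2a12 held TATAAA in this window, and Cyp2f2 did not. The Cyp2a4 and Cyp2a5 windows matched at 294 of 301 aligned positions (97.7%). Cyp2f2 had no CpG, the dinucleotide that carries most DNA methylation, and Cyp2a12, Cyp2a4 and Cyp2a5 had 1, 1 and 2, against a median of 7 over the 27025 mouse promoters of the RefSeq table. The window of Cyp2g1 was not analysed here.

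**Figure D1:**
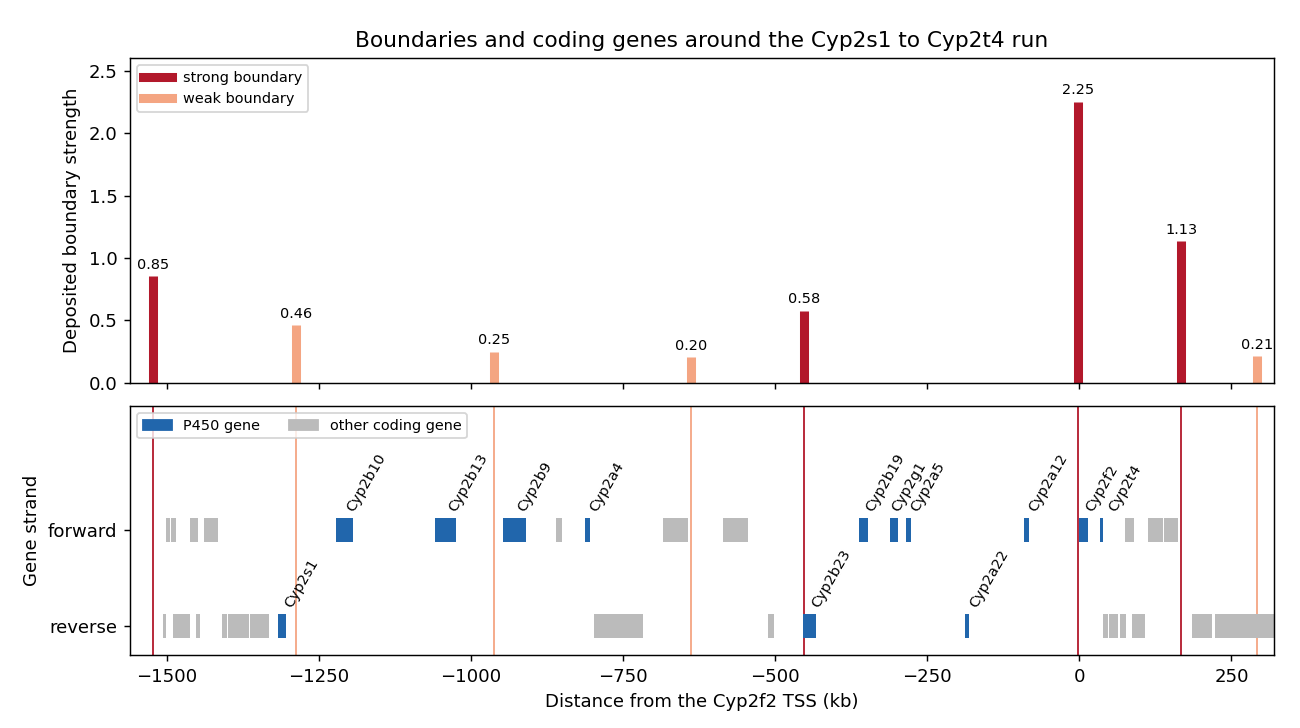
The upper panel plots the deposited strength (y axis, no unit) of each boundary against distance from the Cyp2f2 TSS in kb, with strong and weak boundaries in different colours. The lower panel shows P450 and other protein-coding genes by strand, with the same boundaries as vertical lines. The 2.25 boundary stands at the Cyp2f2 TSS, and the TSSs of 6 P450 genes lie between it and the 0.58 boundary in Cyp2b23.

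Between the Cyp2f2 boundary and the next one to its left lay the longest interval of the run. This 450 kb interval held the TSSs of Cyp2b23, Cyp2b19, Cyp2g1, Cyp2a5, Cyp2a22 and Cyp2a12 and of no other protein-coding gene. Its left boundary, at chr7:26665001-26670000, was strong (0.576) and overlapped exon sequence of Cyp2b23. Inside the interval, Cyp2g1, a P450 known for its expression in olfactory mucosa, started 141 kb from the nearest boundary. Cyp2a5, the mouse coumarin and nicotine hydroxylase, started 168 kb away and Cyp2a22 178 kb away. Cyp2a12, a steroid hydroxylase of liver, started 88.4 kb away, and Cyp2b19, an epidermal enzyme that oxidises arachidonic acid, 89.6 kb away. Cyp2g1 and Cyp2a5 thus started 26.4 kb from each other with no boundary between them. Cyp2f2, the other gene known from the mucosa, started in the 5000 bp boundary interval itself, 2.41 kb to the right of its midpoint. Sides were taken by midpoints, and a boundary interval of that width does not place its TSS on either side.

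Counted by the midpoint of its boundary, Cyp2f2 shared a 170 kb interval with Cyp2t4 and with 9 protein-coding genes of other kinds. These ran from Egln2, an oxygen-sensing prolyl hydroxylase, to Numbl. That interval ended at a strong boundary at chr7:27285001-27290000, with a strength of 1.13. Cyp2t4 started 36.2 kb from the Cyp2f2 boundary. The boundary therefore parted an interval of P450 genes alone from an interval in which they were the minority.

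The left part of the run was divided by weak boundaries. Cyp2s1, a P450 of epithelia that dioxin induces, shared its 235 kb interval with 11 other protein-coding TSSs. A weak boundary at chr7:25830001-25835000 (0.461) parted it from Cyp2b10, the classical phenobarbital-induced P450 of mouse liver. Cyp2b10 and Cyp2b13 shared a 325 kb interval with no other protein-coding TSS. The boundary at its right end, chr7:26155001-26160000, had a strength of 0.246. Cyp2b9 and Cyp2a4 shared the next 325 kb with Vmn1r184, a vomeronasal receptor gene, and with Nlrp9c and Nlrp4a. A boundary at chr7:26480001-26485000 (0.204) followed, and then a 185 kb interval with Nlrp9a and Vmn1r185 and no P450 TSS. Of the 5 boundaries inside the run 2 were strong, against 55.0% of the whole list. Unique 32-base sequence, a measure of how much of a region short reads can be placed in, made up 61.8% of the run and 83.6% of the genome. It was 38.1% in the 0.246 boundary interval and 95.2% in the Cyp2f2 boundary interval. The part of repeated sequence in the weak calls was not tested.

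Close copies lay on both sides of these boundaries. Coding sequences of Cyp2a4 and Cyp2a5 were 98.4% identical. Their TSSs lay 528 kb apart with 2 boundaries between them, of which 1 was strong. Cyp2b13 and Cyp2b9, known as female-predominant in mouse liver, were 92.8% identical and were parted by the 0.246 boundary. Cyp2a22 and Cyp2a12 were 97% identical, lay 89.7 kb apart and had no boundary between them. Cyp2a12 and Cyp2f2, at almost the same distance of 90.8 kb, were 63.2% identical and were parted by the midpoint of the 2.25 boundary. With genes joined into runs at gaps under 200 kb rather than 500 kb, the run shrank to the 8 genes from Cyp2b23 to Cyp2t4 and held 2 boundaries, both strong. The widest gap joined in any run was that between Cyp2a4 and Cyp2b23, at 350 kb, and the narrowest gap not joined, between Cyp26a1 and Cyp2c55, was 1305 kb.

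Over all families, P450 genes started at boundaries about as often as protein-coding genes did. The TSSs of 10 of the 93 genes (10.8%, 95% Wilson interval 5.95 to 18.7) lay at a boundary, against the 13.0% of protein-coding genes. Strong boundaries held 6 of them (6.45%), against 8.39% of protein-coding genes, and boundaries in the upper quartile of strength 3.23%, against 3.97%. In the boundary interval alone lay 2.15% of P450 TSSs, against 3.45%. Intervals given here cover counting error only, and neighbouring genes are not independent of each other. Keratin genes, also in tandem runs, had 1 of 49 TSSs at a boundary (2.04%), vomeronasal type 1 receptor genes 11 of 207 (5.31%) and odorant receptor genes 64 of 1093 (5.86%). The farthest TSS counted lay 9.41 kb outside a boundary interval (Cyp2c29) and the nearest one not counted 11.6 kb outside (Cyp4f16).

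Among Cyp2 and Cyp3 genes, which mostly act on foreign compounds, 4 of 54 were at a boundary (7.41%, 2.92 to 17.6), an interval that holds the 13.0% of protein-coding genes. Cyp2r1 was counted with the vitamin D genes and not here. After Cyp2f2 the strongest of these was Cyp2d26, whose TSS lay 6.79 kb from a 1.83 boundary at chr15:82785001-82790000. Cyp2d22, at the other end of the same run, started 2.76 kb from a boundary at the weak end of the list (0.202). The Cyp2d genes are the mouse relatives of the human enzyme that oxidises debrisoquine. Cyp2c29, an enzyme of liver, lay 11.9 kb from a weak boundary of 0.410, and only by its annotated GENCODE start: its RefSeq start lay 29.6 kb from that boundary. None of the 3 Cyp1 genes, which the aryl hydrocarbon receptor induces, was at a boundary. Cyp1a1 and Cyp1a2 started 74.6 and 78.8 kb from the nearest one and Cyp1b1 103 kb from it.

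Fatty acid P450s of family 4 had 2 of 17 TSSs at a boundary (11.8%, 3.29 to 34.3). Cyp4f15, of the subfamily that oxidises leukotrienes and other fatty acids, had a boundary of 1.74 with its midpoint 1.87 kb away, the shortest distance of the 93. Its promoter is printed because, with Cyp2f2, it was 1 of the 2 P450 genes whose TSS lay in the boundary interval itself, here chr17:32685001-32690000. It held no TATAAA, so the sequence has no capitals.
Cyp4f15, chr17:32685409-32685708, forward strand: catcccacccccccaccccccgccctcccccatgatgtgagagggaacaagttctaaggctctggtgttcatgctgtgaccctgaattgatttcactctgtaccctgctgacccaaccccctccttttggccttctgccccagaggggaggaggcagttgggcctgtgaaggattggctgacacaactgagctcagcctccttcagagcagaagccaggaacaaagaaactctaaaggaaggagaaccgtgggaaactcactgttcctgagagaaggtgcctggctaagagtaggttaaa
Cyp4x1, a P450 found in brain, started 3.22 kb from a weak boundary (0.353) at the left end of the Cyp4x1 to Cyp4b1 run.

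Among P450s of the body's own signals and lipids the counts were small. Retinoic acid is degraded by the 3 Cyp26 enzymes, and 2 of their genes were at a boundary. Cyp26b1 started 11.4 kb from a strong boundary (0.885) that lay in its own gene body, at chr6:84580001-84585000. Cyp26a1 started 4.70 kb from a weak one (0.349), and Cyp26c1, its neighbour, 16.9 kb from the same boundary and outside the window. Of 6 bile acid and sterol genes, 1 was at a boundary. This was Cyp46a1, the cholesterol hydroxylase of brain neurons, 8.12 kb from a strong boundary (0.706) at chr12:108340001-108345000 in its gene body. Of 6 steroid hormone genes, Cyp21a1, an adrenal steroid hydroxylase, lay 2.94 kb from a strong boundary (0.535). None of the 3 vitamin D genes and not Cyp20a1 was at a boundary. Such numbers leave wide intervals. For bile acid and sterol genes and for steroid hormone genes, 1 of 6 gave 3.01 to 56.4%, which holds the 13.0% of protein-coding genes. For retinoic acid genes 2 of 3 gave 20.8 to 93.9%, which lies above it but rests on 3 genes, 1 group among several counted.

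**Figure D2:**
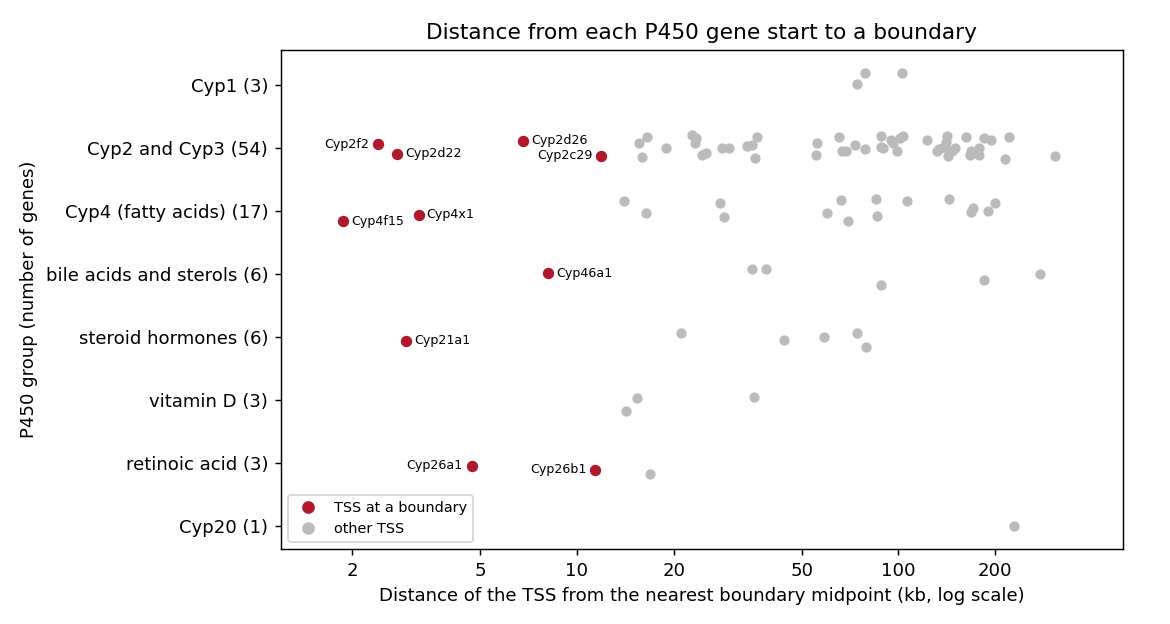
Each point is a P450 gene, placed by the distance of its TSS from the nearest boundary midpoint (x axis, kb, log scale) and by biochemical group (y axis, number of genes). The 10 named genes lie at a boundary, from 1.87 kb for Cyp4f15 to 11.9 kb for Cyp2c29, and the others lie up to 306 kb away.

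P450 TSSs lay a median of 73.2 kb from the nearest boundary midpoint (1.87 to 306 kb), against 61.1 kb for all protein-coding TSSs. A boundary midpoint lay in the body of 9 P450 genes (9.68%, 5.18 to 17.4), against 12.7% of protein-coding genes. These genes were Cyp2j13, Cyp26b1, Cyp2b23, Cyp46a1, Cyp2d22, Cyp4f17, Cyp4f15, Cyp39a1 and Cyp2c38. Of them 4 also had their TSS at the boundary. The outermost genes of the runs had their TSS at a boundary in 4 of 20 cases (20%, 8.07 to 41.6). Inner genes did in 3 of 51 (5.88%, 2.02 to 15.9) and solitary genes in 3 of 22 (13.6%, 4.75 to 33.3). All these intervals hold the 13.0% of protein-coding genes.

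P450 runs held boundaries at close to the density of the rest of the genome. The 10 runs covered 5.79 Mb and had 17 boundaries inside, a density of 2.94 per Mb, against 2.88 per Mb in the rest of the genome. Keratin runs had 4.07 per Mb (2 runs), odorant receptor runs 1.99 (44 runs) and vomeronasal receptor runs 1.64 (12 runs). Boundaries inside P450 runs were strong in 7 of 17 cases (41.2%, 21.6 to 64.0), against 55.0% of the list. Unique 32-base sequence made up 64.3% of the P450 runs, 88.9% of keratin runs, 73.6% of odorant receptor runs and 45.0% of vomeronasal receptor runs. Its part in these densities was not tested.

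The runs differed in how many boundaries they held. Cyp2s1 to Cyp2t4 had 5, or 3.69 per Mb. The 14-gene Cyp2c run on chromosome 19, whose liver enzymes oxidise drugs and arachidonic acid, had 3, all weak. The Cyp2d, Cyp4f and Cyp4x1 to Cyp4b1 runs had 2 each, both strong for Cyp4f and both weak for Cyp4x1 to Cyp4b1. The Cyp2j run of arachidonic acid epoxygenases, the Cyp3a run of broad drug oxidases and the Cyp1a2 to Cyp11a1 run had 1 each. No boundary lay inside the pairs Cyp11b1 and Cyp11b2, which make adrenal corticoids, and Cyp26c1 and Cyp26a1, which span 22.2 and 16.0 kb.

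**Figure D3:**
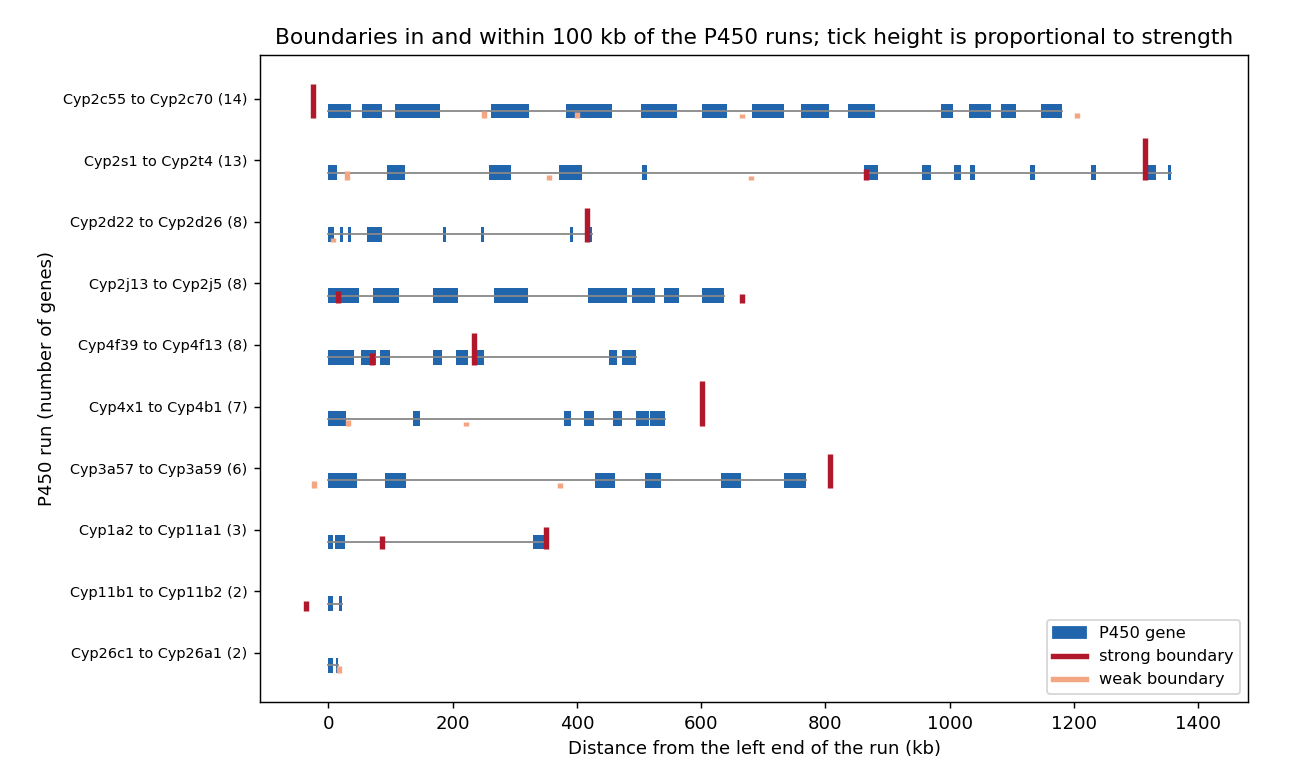
Each row is a P450 run of 2 or more genes, drawn from its left end (x axis, kb), with genes as blocks and boundaries in and within 100 kb of the run as ticks whose height is proportional to the deposited strength. Of the tall ticks, those of 1.86, 2.43 and 1.82 stand outside the ends of the Cyp2c, Cyp4x1 to Cyp4b1 and Cyp3a runs. Those of 2.25 and 1.83 stand inside the Cyp2s1 to Cyp2t4 and Cyp2d runs, within 50 kb of their right ends. The 1.74 tick stands inside the Cyp4f run.

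Run ends lay near boundaries more often than gene ends in general, by the counts. Within 50 kb of the outermost gene end, 15 of 20 run ends had a boundary midpoint (75%, 53.1 to 88.8), against 43.0% of the 43510 ends of protein-coding genes. Both ends of the Cyp26c1 to Cyp26a1 run were counted by the same boundary (0.349). The share was 54.5% for the 44 ends of solitary P450 genes (40.1 to 68.3), 53.4% for odorant receptor runs and 50% for vomeronasal receptor runs. Keratin runs had 3 of 4. Runs and single genes are not alike in size, so a run end is no matched sample of gene ends. For strong boundaries alone the P450 share was 40% (21.9 to 61.3) against 27.9%. For boundaries above the upper quartile of strength (0.983) it was 25% (11.2 to 46.9) against 12.9%. Both intervals hold the share of gene ends. With genes joined at gaps under 200 kb the P450 share was 57.1% (39.1 to 73.5), an interval that holds the 43.0%. Within 25 kb the P450 share was 40% against 23.6%, and within 100 kb 95% against 71.5%.

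Named ends show what lay there. The left end of the Cyp2c run, at Cyp2c55, lay 24.5 kb from a strong boundary of 1.86 at chr19:38980001-38985000, and its right end, at Cyp2c70, 25.2 kb from a weak one of 0.285. The right end of the Cyp3a run, at Cyp3a59, lay 39.2 kb from a boundary of 1.82 at chr5:146150001-146155000, and its left end, at Cyp3a57, 22.8 kb from one of 0.367. Both runs thus had a boundary above the upper quartile of the list at 1 end and a weak one at the other. The gene end of Cyp11a1, which cuts the side chain of cholesterol as the first step of steroid synthesis, lay 0.477 kb from a boundary midpoint of 1.22. The ends of the Cyp2j run had boundaries of 0.662, inside Cyp2j13, and 0.515, beyond Cyp2j5. Among the 5 ends with no boundary within 50 kb was that of Cyp4b1, a P450 of lung, 59.8 kb from a boundary of 2.43. The others were Cyp1a2 (85.6 kb), Cyp11b2 (58.8 kb), Cyp4f39 (69.8 kb) and Cyp4f13 (170 kb).

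Boundaries deep inside the runs were mostly weak. More than 50 kb from an end there were 11 boundaries with a median strength of 0.344 (0.204 to 1.74), of which 4 were strong (36.4%, 15.2 to 64.6). That interval holds the 55.0% of the whole list. At the ends there were 14 with a median of 0.526 (0.202 to 2.25), of which 8 were strong (57.1%, 32.6 to 78.6). These 14 include 6 that also lay inside a run, within 50 kb of its end. The ranges overlap and so do the intervals of the shares. Over all 25 boundaries in or at the runs the median was 0.461, against 0.563 for the list. Less than 50% of the sequence was unique in 4 of the 25 (16%), against 4.93% of the list. None of these 4 was strong, against 177 of the 363 such boundaries in the list. They included the boundary in Cyp2c53-ps next to Cyp2c29 (14.3% unique) and that at Cyp3a41a between Cyp3a16 and Cyp3a44 (19% unique).

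**Figure D4:**
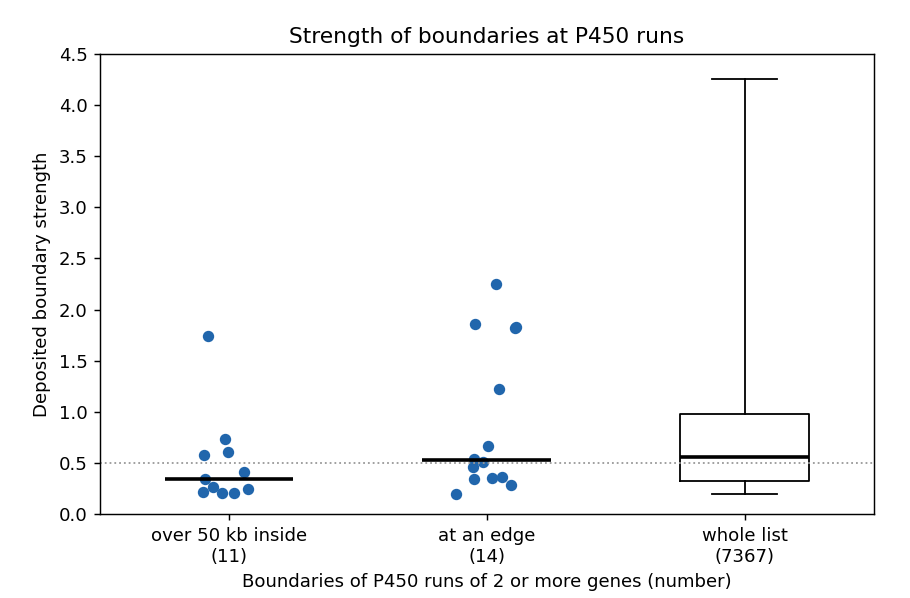
Points give the deposited strength (y axis, no unit) of the 11 boundaries over 50 kb inside P450 runs and of the 14 at their ends, with bars at the medians of 0.344 and 0.526. The box gives the quartiles and the whiskers the range of all 7367 boundaries, and the dotted line marks the change from weak to strong at 0.5.

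Of the intervals between boundaries that held a P450 TSS, 39.1% held more than 1. The 93 TSSs lay in 46 intervals, and 65 of the genes shared theirs with another P450 gene, in 18 intervals. In 15 of the 46 intervals no protein-coding TSS but those of P450 genes was found, and 11 of these held 2 or more P450 genes. Genes of a run are by definition neighbours less than 500 kb apart, and the same shares over all intervals were not counted. Counted per gene, the interval around a P450 TSS had a median length of 345 kb (quartiles 235 and 450), against 280 kb (195 and 410) for all protein-coding TSSs. Intervals rich in genes weigh more in such a median. Counted once each, the 46 intervals had a median of 265 kb, the same as all 7347 intervals of the list.

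Counted by their TSSs, some subfamilies stayed whole and others were split. The TSSs of all 8 Cyp2j genes, from Cyp2j13 to Cyp2j5, lay in a single 650 kb interval that held no other protein-coding TSS. Its left boundary (0.662) lay in the gene body of Cyp2j13. Of the Cyp2d genes 7 started in a 410 kb interval, also alone, and Cyp2d26 lay beyond the 1.83 boundary. The left boundary of the 410 kb interval (0.202) lay in the gene body of Cyp2d22. The 14 Cyp2c genes of the run fell into intervals of 275, 150, 265 and 540 kb with 3, 1, 3 and 7 genes, parted by weak boundaries of 0.410, 0.344 and 0.209. The Cyp3a run was cut once, at a weak boundary of 0.270, into 2 and 4 genes. The Cyp4f run was cut by 2 strong boundaries, 0.605 in Cyp4f17 and 1.74 in Cyp4f15, into 2, 4 and 2 genes. Cyp4f15, whose TSS lay in the 1.74 boundary interval itself, was counted to the left of its midpoint. Cyp4x1, Cyp4a29 and the 5 genes from Cyp4a14 to Cyp4b1 were parted by weak boundaries of 0.353 and 0.214. A strong boundary stood between P450 TSSs in 4 of the 10 runs, namely Cyp2s1 to Cyp2t4, Cyp2d, Cyp4f and Cyp1a2 to Cyp11a1.

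The longest intervals around P450 genes were those of Cyp7b1, an oxysterol hydroxylase (1120 kb), of the Cyp2j genes (650 kb) and of Cyp2e1, which oxidises ethanol (640 kb). The shortest were those of Cyp8b1, which sets the share of cholic acid in bile (135 kb), Cyp21a1 (140 kb) and Cyp2c29 (150 kb). The Cyp7b1 interval held 1 other protein-coding TSS and the Cyp2e1 interval 22, so long intervals around P450 genes ranged from sparse to dense in other genes.

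Neighbouring P450 genes were parted by a boundary in 14 of 61 pairs (23.0%, 14.2 to 34.9), against 24.5% of 21064 neighbouring protein-coding pairs. The protein-coding pairs are adjacent genes, whereas 6 of the P450 pairs have another protein-coding TSS between them. The 55 P450 pairs without one were parted in 9 cases (16.4%, 8.86 to 28.3), an interval that holds the 24.5%. Strong boundaries parted 6 pairs (9.84%), against 16.1%. P450 neighbours started farther apart, at a median of 72.6 kb, against 38.8 kb for all pairs. At 0 to 50 kb 2 of 21 P450 pairs were parted (9.52%), against 8.61% of all pairs at that distance. At 50 to 100 kb it was 3 of 20 (15%, 5.24 to 36.0), against 27.4%. At 100 to 1000 kb it was 9 of 20 (45%, 25.8 to 65.8), against 61.5%. These 20 include all 6 pairs with another protein-coding TSS between them, of which 5 were parted, so the shares are not of like pairs. The pairs under 50 kb that were parted were Cyp2d40 and Cyp2d26 (30.1 kb, by the 1.83 boundary) and Cyp4f17 and Cyp4f16 (30.5 kb, by the 0.605 boundary).

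Of 6 P450 pairs with another protein-coding TSS between them 5 were parted, and of 55 pairs without one 9 were (16.4%, 8.86 to 28.3). In 2 of the 6, both parted, the genes between were P450 genes outside the symbol rule, such as Cyp4a12a between Cyp4a29 and Cyp4a14 and Cyp3a41a between Cyp3a16 and Cyp3a44. Genes of other kinds lay between 4 pairs, of which 3 were parted. The median distance was 286 kb for the first kind and 69.6 kb for the second, so distance and intervening genes cannot be told apart here. Pairs of different subfamilies were parted in 5 of 11 cases (45.5%, 21.3 to 72.0) and pairs of the same subfamily in 9 of 50 (18%, 9.77 to 30.8). Convergent pairs were parted in 4 of 11 cases (15.2 to 64.6%), tandem pairs in 8 of 39 (10.8 to 35.5%) and divergent pairs in 2 of 11 (5.14 to 47.7%). These intervals overlap, and the median distances were 124, 63.6 and 69.6 kb. Parted pairs had a median coding sequence identity of 76.8% and pairs not parted 81.8%, at median distances of 134 and 63.6 kb. The part of distance in these differences was not tested. Among these neighbouring pairs, the highest identity across a boundary was that of Cyp2c67 and Cyp2c68 (97.2%, weak boundary of 0.209), and the highest without one that of Cyp3a25 and Cyp3a59 (97.5%).

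**Figure D5:**
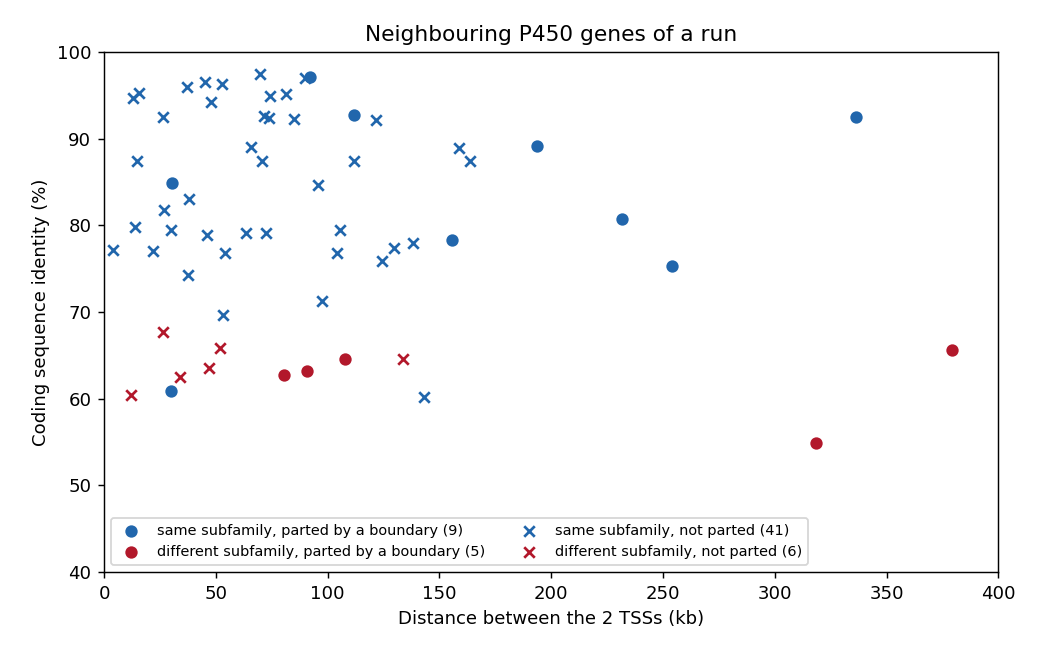
Each point is a pair of neighbouring P450 genes of a run, placed by the distance between their TSSs (x axis, kb) and the identity of their coding sequences (y axis, %). Filled points mark the 14 pairs parted by a boundary and crosses the 47 that were not, and colours tell pairs of the same subfamily from pairs of different ones. All pairs over 164 kb apart were parted, and below that both kinds occur.

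Boundaries of P450 runs were searched for the core motif of CTCF, the DNA-binding protein that stops loop extrusion at many boundaries. The motif was searched on both strands in the boundary interval widened by 10 kb. It was found at 3 of the 25 boundaries in or at the runs (12%, 4.17 to 30.0), an interval that holds the 23.9% of the list. The same pattern reversed but not complemented was found at 0 of 25, with a Wilson upper bound of 13.3%, and at 0.475% of the list. The reversed pattern must hold a CpG and the motif holds none, so its rate is not a matched chance rate for the motif. The 3 matches are printed with 20 bases on each side, forward strand of GRCm38, with the motif in capitals, because they are the CTCF-like sequences at these boundaries.
Beyond Cyp2j5, chr4:96687632-96687643: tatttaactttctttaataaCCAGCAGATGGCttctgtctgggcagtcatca
Between Cyp1a1 and Cyp11a1, chr9:57762880-57762891: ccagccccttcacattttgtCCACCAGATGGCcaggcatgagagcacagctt
Left of Cyp2c55, chr19:38982164-38982175: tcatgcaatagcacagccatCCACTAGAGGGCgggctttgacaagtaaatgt
All 3 lay on the forward strand, at boundaries of 0.515, 0.735 and 1.86. The boundaries at Cyp2f2, Cyp2d26 and Cyp4f15, at 2.25, 1.83 and 1.74, had no match. A match is a description of letters in the reference and shows no binding, and its absence says nothing of the protein.

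P450 promoters were searched for TATAAA, since TATA boxes mark many promoters of tissue-specific genes. The RefSeq table held 72 of the 93 genes. TATAAA stood on the gene's strand in 23 of the 72 windows (31.9%), against 8.88% of 27025 promoters in the table. On the other strand it stood in 8 (11.1%), against 7.04%, and on either strand in 30 (41.7%), against 14.2%. On the gene's strand the matches stood from -234 bases (Cyp3a11) to 40 bases (Cyp2c40) relative to the RefSeq start. They were counted at any place in the window, so a match need not be a TATA box. The median promoter had a GC content of 49.7% and 3 CpGs, against 52.7% and 7 over the table. Many P450 promoters of a run are copies of each other, so these windows are not independent.

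Genes that work with P450s were counted in the same way. Of 32 partner genes, 2 had a TSS at a boundary (6.25%, 1.73 to 20.1), against 13.0% of protein-coding genes. Fdx1, the ferredoxin that hands electrons to mitochondrial P450s, lay at a strong boundary (1.62), 11.1 kb from its midpoint, and was the 1 of 7 electron donors and related genes. Ahr, the receptor that induces Cyp1 genes, lay 2.46 kb from the midpoint of a weak boundary (0.209) and was the 1 of 7 regulators. None of the 18 genes of conjugation and other oxidation was at a boundary (Wilson upper bound 17.6%). Por, the reductase that serves microsomal P450s, started 52.5 kb from the nearest one, and Ugt2a1, a glucuronosyltransferase of olfactory mucosa, 167 kb from it.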

How the data were processed

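In situ Hi-C of 2 biological replicates of sorted Olfr1507-expressing neurons was the only assay. Per the series design text, the authors pooled both replicates in 1 contact matrix on GRCm38 and called boundaries on it. The deposited strength of each boundary is a score of unstated scale. The sources used here do not give the caller, the aligner or the read filters. Contact matrices, insulation and compartment tracks and reads were not used here. The list has no counts, so the depth behind a boundary is unknown. The reference strain differs from that of the mice.

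Boundary intervals of 5000 bp were joined to GENCODE M21 gene models of GRCm38 with Python 3.11.15, numpy 2.4.6 and pandas 2.3.3. A TSS was the 5′ end of the gene model. It counted as at a boundary inside the interval or up to 10 kb outside. A boundary was inside a run when its midpoint lay between the outermost gene ends, and at an end within 50 kb of it. Intervals between boundaries, the genes in them and the parting of pairs were taken by boundary midpoints and TSSs. Shares have 95% Wilson intervals (scipy 1.17.1). Identity was matches over alignment columns of a global edit-distance alignment (edlib 1.3.9.post1) of the longest coding sequences, which pairs many bases even of unrelated sequences. Protein identity was planned, and coding sequence was used in its place. Uniqueness was taken from 32-base sequences read every 250 bp, as the percent found nowhere else in the genome. Promoters are from RefSeq for GRCm38. The join was tested on simulated data. The design gives no test, since there is 1 list and genes are not replicates.

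Named genes were those at a boundary, all of the Cyp2s1 to Cyp2t4 run, the first and last gene of each run of 4 or more, those next to the 5 strongest boundaries inside runs, those in the 3 longest and 3 shortest intervals, and partner genes at a boundary. Other genes were named after their values were seen. The members and lists were chosen with earlier results of these data known. Alternatives changed the window, the boundary class, the gap that joins genes, the distance from a run end, the TSS and the symbol rule.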

Additional observations from a re-analysis of the deposited data

How the results depend on the processing

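No paired analysis was possible because both replicates were combined into 1 list before boundaries were called, and for the same reason no replicate could be left out. The values depended most on which boundaries and distances were counted. The share of P450 TSSs at boundaries was 2.15% in the interval alone (3.45% of protein-coding genes), 26.9% with the interval widened by 25 kb (25.0%) and 3.23% for boundaries in the upper quartile of strength (3.97%), so it stayed near that of protein-coding genes in each. Strong boundaries alone left 7 inside P450 runs and the upper quartile 3. The share of run ends at a boundary was 40% within 25 kb (23.6% of gene ends) and 95% within 100 kb (71.5%). It was 40% for strong boundaries (21.9 to 61.3, gene ends 27.9%) and 25% for the upper quartile (11.2 to 46.9, gene ends 12.9%). The share lay above that of gene ends in each, but the last 2 intervals hold the share of gene ends. Strong boundaries alone gave a median strength of 0.979 in and at runs, 2 boundaries in the Cyp2s1 to Cyp2t4 run, 9.84% of pairs parted and a median interval of 650 kb (480 kb for all protein-coding genes). Joining genes at gaps under 200 kb left 2 boundaries in that run. The reversed CTCF pattern gave 0%. The other 18 values stayed within 1.5 times the main count or within its 95% interval. For partner genes (6.25%) that interval was wide, at 1.73 to 20.1. Their share was 3.125% in the interval alone (3.45% of protein-coding genes) and for strong boundaries (8.39%). With the interval widened by 25 kb it was 18.75% (25.0%), so it moved with the window. These 18 values include 57.1% of run ends at a boundary with gaps under 200 kb (39.1 to 73.5), an interval that holds the 43.0% of gene ends. They also include 2 alternatives chosen after seeing the data. Boundaries with at least 50% unique sequence gave 9.68% of TSSs, 14 boundaries inside runs, 70% of run ends and 18.0% of pairs. RefSeq starts gave 9.68% of TSSs, with Cyp2c29 the 1 call that changed among 72 matched genes. These are positions in a single map of unknown depth, the part of repeated sequence in the calls was not tested, and counts of 10 to 25 leave wide intervals.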

Other observations

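The 3 vitamin D genes had no TSS within 10 kb of a boundary interval, but all started nearer to a boundary midpoint than the median of 61.1 kb for protein-coding TSSs. Cyp27b1 started 14.3 kb from it, Cyp24a1 15.4 kb and Cyp2r1 35.5 kb. Cyp2r1 and Cyp27b1, which activate vitamin D, lay in intervals of 155 and 175 kb, and Cyp24a1, which inactivates it, in one of 155 kb. The boundaries around Cyp27b1 were strong (1.87 and 1.22), and those around Cyp2r1 were near the lowest strength in the list (0.213 and 0.201). Cyp24a1 had a strong boundary on its left (0.611) and a weak one on its right (0.241).

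The 6 P450 genes with a suffix or a second letter in their symbol were outside the symbol rule. Of these, Cyp3a41a was at a boundary, the weak one of 0.270 between Cyp3a16 and Cyp3a44, with its TSS 2.64 kb from the midpoint. With these genes included, 11.1% of 99 P450 TSSs were at a boundary, against 13.0% of protein-coding genes. Only 19% of the 32-base sequence in that boundary interval was unique.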
